A study of Homo sapiens with 30 samples.

Results

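The integrated stress response is the route by which cells under stress lower protein synthesis and switch on a repair programme, and 10 of its genes were followed here. They were taken by symbol from a count table of 60664 genes and comprise the kinases EIF2AK1, EIF2AK2, EIF2AK3 and EIF2AK4, the transcription factors ATF4 and DDIT3, the ATF4 targets TRIB3 and ASNS, and the phosphatase subunits PPP1R15A and PPP1R15B. All 10 symbols were found, each in 1 row. The cells were Flp-In T-REx HEK293, an established human embryonic kidney line built so that a single inserted transgene is switched on by tetracycline. The WT line carries GFP-tagged TIA1a, an RNA-binding protein that nucleates stress granules, and the WDM line carries a version altered as in Welander distal myopathy, a muscle disease. Each line gave cytosol libraries from untreated cells, from cells given tetracycline, and from cells given tetracycline and then arsenite (0.5 mM for 60 minutes), and granule libraries from the tetracycline groups with and without arsenite. The granule fraction was a centrifuged pellet of granule cores pulled down through GFP. Each of the 10 groups had 3 libraries, 18 of cytosol and 12 of granule in all. There is 1 line for each genotype, so mutation and line cannot be told apart, and nothing in the labels says that replicates came from separate cultures, so p-values measure the spread between these libraries only.

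As background, each of the kinases senses a different stress (lack of heme or mitochondrial damage for EIF2AK1, double-stranded RNA for EIF2AK2, misfolded protein in the endoplasmic reticulum for EIF2AK3, lack of amino acids for EIF2AK4) and phosphorylates the translation initiation factor eIF2. General protein synthesis then falls, stress granules form from stalled messages, and a few messages with upstream reading frames, ATF4 among them, are translated better. ATF4 protein raises transcription of DDIT3, TRIB3, ASNS and others, and PPP1R15A and PPP1R15B return eIF2 to its resting state by guiding a phosphatase to it. Arsenite is an oxidative agent widely used to start this response, and much of it runs through protein, which these RNA data do not measure.

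Total counts per library ran from 5906167 to 27419145. TIA1 itself had 3 counts over the 30 libraries, so induction of the transgene could not be checked in this table. Why its count was so low was not tested. Of 9 HEK293 markers, 8 averaged over 1 CPM (counts-per-million unit) in both fractions, and of 4 blood cell and 2 hepatocyte markers 0 did. Of 4 fibroblast markers, 2 did in cytosol (COL1A1 and LUM) and 1 in granule libraries, and of 4 skeletal muscle markers, 1 did in granule libraries (ACTA1), with summed levels of at most 9.25 and 3.29 CPM. Nuclear RNAs (NEAT1, MALAT1, KCNQ1OT1 and MEG3, summed) had 221 to 795 CPM in the cytosol libraries and 2203 to 3590 CPM in the granule libraries, so the groups of the 2 fractions differ in nuclear RNA wherever they are compared, and its part in those results was not tested. Levels are given as CPM scaled by TMM factors over all 30 libraries. Fold changes and adjusted p-values come from edgeR's quasi-likelihood test over all genes of a fraction, with Benjamini-Hochberg adjustment, and a gene is called where the adjusted p is under 0.05. With each library scaled by its total alone, the median gene rose by 0.11 with arsenite in WT cytosol on the log2 scale, against -0.02 with TMM.

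Short promoter stretches are shown for PPP1R15A, DDIT3, PPP1R15B and ASNS, since ATF4 and its partners are known to act through elements of this kind. These stretches were picked by hand among genes whose counts moved or were missing. ATF4 and EIF2AK4, which were also called in some comparisons, have matches that are not shown. RefSeq gave 300-base windows around a start site (250 bases before, 50 after; build GRCh38.p14) for 9 of the 10 genes, 14 windows in all. They were searched on both strands for TGATGNAA, the core of the element read by C/EBP and ATF4 pairs, and, chosen after the counts had been seen, for TGACG, the half-site of the cyclic AMP response element, and TGANTCA, the AP-1 element. Matches are in capitals and the sequences are read 5′ to 3′ on the strand of the gene.
PPP1R15A, chr19:48872256-48872285, plus strand: ggaaactccgccgTGACGttgcaaaagctg
PPP1R15A, chr19:48872350-48872379, plus strand: ccgcctctcttcgTGACGTCAgcacgccgg
DDIT3, chr12:57520735-57520764, minus strand: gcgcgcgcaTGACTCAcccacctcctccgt
PPP1R15B, chr1:204412026-204412055, minus strand: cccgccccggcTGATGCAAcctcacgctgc
ASNS, chr7:97872458-97872487, minus strand: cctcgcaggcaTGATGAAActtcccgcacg

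In the PPP1R15A window the TGACG half-site lay at -152 and, as a palindrome of overlapping half-sites on both strands, at -58 and -55 from the start site. TGATGNAA was found in 2 of the 14 windows, 1 of PPP1R15B at -227 and 1 of ASNS at -68. Over all genes 1270 of 35116 windows of this length held it (3.62%). The half-site TGACG occurred in 24.6% of all windows and TGANTCA in 7.71%, so single matches are common. TGACG also occurred in the windows of ATF4, PPP1R15B and ASNS, and TGANTCA in that of EIF2AK4, and these matches are not shown above. A match describes the letters only and says nothing of binding. Sequence outside these windows was not searched, so a gene without a match here may hold the element elsewhere. Part of the 250 bases before the start site is itself annotated as exon of the same gene. In the windows shown this was 209 bases for PPP1R15A, 134 for ASNS, 70 for PPP1R15B and 3 for DDIT3.

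PPP1R15A and DDIT3 rose in the cytosol of both lines after 60 minutes of arsenite. These are bulk libraries, in which a change in some cells and a smaller change in all of them cannot be told apart. PPP1R15A (ENSG00000087074, chromosome 19, 48872421 to 48876058, plus strand) encodes GADD34, the stress-induced subunit that ends the response by reversing eIF2 phosphorylation. In WT cytosol it had 34.7, 39.9 and 37.2 CPM with tetracycline alone and 65.2, 62.5 and 61.1 CPM with arsenite. In WDM cytosol it had 33.8, 42.4 and 37.7 CPM with tetracycline alone and 55.5, 80.9 and 59.8 CPM with arsenite. All arsenite libraries lay above all tetracycline libraries of their line, and the WDM arsenite libraries were more spread than those of WT. The log2 fold change was 0.74 ± 0.117 (SE, n = 3 against 3, adjusted p = 0.00017) in WT and 0.78 ± 0.117 (adjusted p = 0.000123) in WDM.

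DDIT3 (ENSG00000175197, chromosome 12, 57516588 to 57521737, minus strand) encodes CHOP, a transcription factor of the late, death-promoting side of the response. With tetracycline alone it had 19.1, 23.5 and 30 CPM in WT cytosol, and with arsenite 37.7, 37.9 and 34.2 CPM. The WDM libraries had 20.6, 20.9 and 23.5 CPM without arsenite and 30, 38.9 and 35.2 CPM with it. The groups did not overlap in either line, and the changes were log2 0.59 ± 0.128 (SE, n = 3 against 3, adjusted p = 0.00255) in WT and 0.67 ± 0.129 (adjusted p = 0.00101) in WDM. These counts carry a limit: 27.2% of the exon bases of DDIT3 lie opposite MARS1, and 53.77% of its span lies inside ENSG00000285133 on its own strand, which had 0 counts. The library kit is stranded per the labels, and the strand setting of the counting is not given in the sources used here. MARS1, the cytosolic methionyl-tRNA synthetase, fell with arsenite by 0.25 on the log2 scale in both lines (adjusted p = 0.0328 in WT and 0.034 in WDM), and the part of its reads in the DDIT3 counts was not tested.

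**Figure D1:**
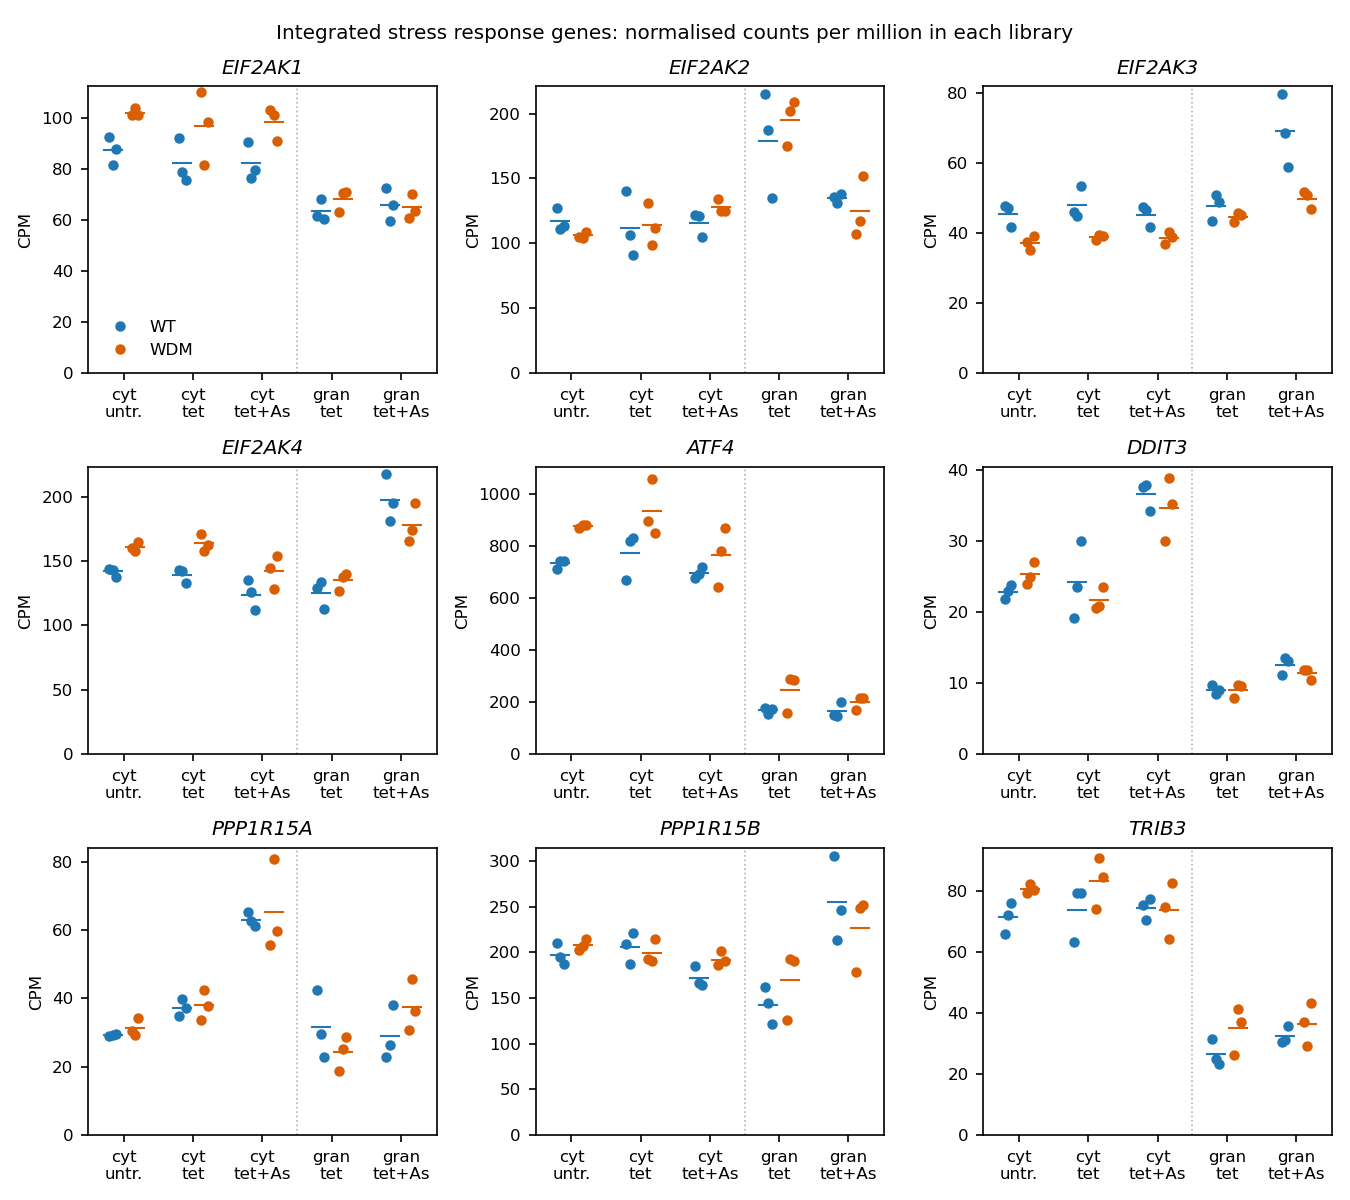
Normalised counts-per-million values (CPM, vertical axis, from 0) in each of the 30 libraries for 9 genes, by fraction and treatment (cyt, cytosol; gran, granule; untr., untreated; tet, tetracycline; As, arsenite), with points for libraries, bars for the mean of 3, blue for WT and orange for WDM. PPP1R15A and DDIT3 stand highest in the arsenite-treated cytosol of both lines, at means of 62.9 and 65.4 CPM and of 36.6 and 34.7 CPM. ATF4, DDIT3, TRIB3 and EIF2AK1 are lower in every granule library than in any cytosol library.

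ATF4 (ENSG00000128272, chromosome 22, 39519695 to 39522683, plus strand), the central transcription factor of the response, did not rise. In WT cytosol it had 672, 822 and 833 CPM with tetracycline and 678, 692 and 719 CPM with arsenite, and these groups overlapped (log2 fold change -0.17 ± 0.105, adjusted p = 0.232). In WDM cytosol the values were 896, 1060 and 852 CPM before and 644, 782 and 869 CPM with arsenite, also overlapping. There the fall passed the test at log2 -0.29 ± 0.105 (SE, n = 3 against 3, adjusted p = 0.0431), but with each library scaled by its total alone the adjusted p was 0.0885, with only the groups compared in the fit it was 0.17, and without tetracycline replicate 2, arsenite replicate 1 or arsenite replicate 2 it was up to 0.241. In WT the fall passed the test without tetracycline replicate 1, at log2 -0.27. TRIB3 (ENSG00000101255, chromosome 20, 362835 to 397559, plus strand), a pseudokinase induced by ATF4 and CHOP that dampens both, was not called in either line. Its means were 73.9 ± 9.21 and 74.5 ± 3.52 CPM in WT cytosol and 83.1 ± 8.4 and 73.8 ± 9.32 CPM in WDM cytosol, without and with arsenite (SD, n = 3). The intervals of its log2 fold change (95%) were -0.22 to 0.22 in WT and -0.39 to 0.04 in WDM.

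ASNS (ENSG00000070669, chromosome 7, 97851677 to 97872542, minus strand), which makes asparagine and is a standard reporter of ATF4, could not be read. It had 2 counts over all 30 libraries, no library held more than 1, and it was left out of every test. Its span lies to 99.95% inside ENSG00000284707, a long noncoding RNA gene on the same strand (chromosome 7, 97851688 to 97972985) whose exons cover 49.3% of the exon bases of ASNS and which had 19252 counts. The same holds more widely: of 1155 protein-coding genes with at least 95% of their span inside a gene of the same strand, 1007 (87.2%) averaged under 1 count per library, against 3555 of 18787 others (18.9%). A low count of ASNS therefore cannot be told apart from reads lost to the overlap. The overlapping gene had 16.1 ± 3.71 CPM in WT cytosol with tetracycline and 23.6 ± 3.03 CPM with arsenite (SD, n = 3), and 17.4 ± 1.65 and 25.4 ± 2.66 CPM in WDM cytosol. In granule libraries it had 79.7 ± 14.5 and 53.2 ± 11.7 CPM in WT and 69.1 ± 15.3 and 62.9 ± 9.33 CPM in WDM, and which of these reads came from ASNS was not tested.

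PPP1R15B (ENSG00000158615, chromosome 1, 204403381 to 204411817, minus strand) encodes CReP, the constitutive partner of GADD34 in reversing eIF2 phosphorylation. In WT cytosol it had 209, 187 and 221 CPM with tetracycline and 185, 166 and 164 CPM with arsenite. All 3 arsenite libraries were lower, and the log2 fold change was -0.27 ± 0.0804 (SE, n = 3 against 3, adjusted p = 0.0166). That call is fragile: with libraries scaled by their totals alone the change was -0.14 with an adjusted p of 0.202, and leaving out tetracycline replicate 3, arsenite replicate 2 or arsenite replicate 3 raised the adjusted p to at most 0.098. In WDM cytosol the groups overlapped, at 193, 190 and 215 CPM and 186, 201 and 190 CPM (log2 fold change -0.05 ± 0.0802, adjusted p = 0.664). The number of PPP1R15A counts for each PPP1R15B count in the same library, which needs no scaling between libraries, rose from 0.166, 0.213 and 0.168 to 0.352, 0.376 and 0.372 in WT cytosol. In WDM cytosol it went from 0.175, 0.223 and 0.176 to 0.298, 0.402 and 0.315, so the inducible subunit gained on the constitutive one in every arsenite library of both lines.

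None of the kinases was called with arsenite in the cytosol of either line. EIF2AK1 (HRI; ENSG00000086232, chromosome 7, 6022247 to 6059175, minus strand), the kinase through which arsenite is known to act, averaged 82.2 ± 8.74 CPM without and 82.2 ± 7.37 CPM with arsenite in WT cytosol (SD, n = 3). EIF2AK2 (PKR; ENSG00000055332, chromosome 2, 37099210 to 37157522, minus strand) and EIF2AK3 (PERK; ENSG00000172071, chromosome 2, 88556741 to 88691518, minus strand) changed by log2 0.04 ± 0.121 and -0.10 ± 0.0876 in WT. EIF2AK4 (GCN2; ENSG00000128829, chromosome 15, 39934115 to 40035591, plus strand) changed by -0.17 ± 0.0795 in WT (adjusted p = 0.102) and -0.20 ± 0.0791 in WDM (adjusted p = 0.0581). All 3 WDM arsenite libraries of EIF2AK4 lay below the tetracycline libraries, and without arsenite replicate 3 that fall was called.

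In all, 3 of the 9 tested genes were called with arsenite in WT cytosol, against 29.0% of 16670 genes, and 3 of 9 in WDM, against 28.8%. The members' share is near that background. With each library scaled by its total alone, the higher share of all calls moved from 47.1% to 76.7% in WT and from 48.8% to 66.8% in WDM. The direct test of whether the lines differed in their arsenite response in cytosol called 0 of 9 genes and 0 of 16670 (0.00%) by edgeR. At an unadjusted p under 0.05 there were 0 of the 9 and 331 of all genes (1.99%), and DESeq2 called 0 genes too. For PPP1R15A the difference between the lines was log2 0.04 (95% interval -0.30 to 0.38), and for DDIT3 0.08 (-0.30 to 0.46).

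**Figure D2:**
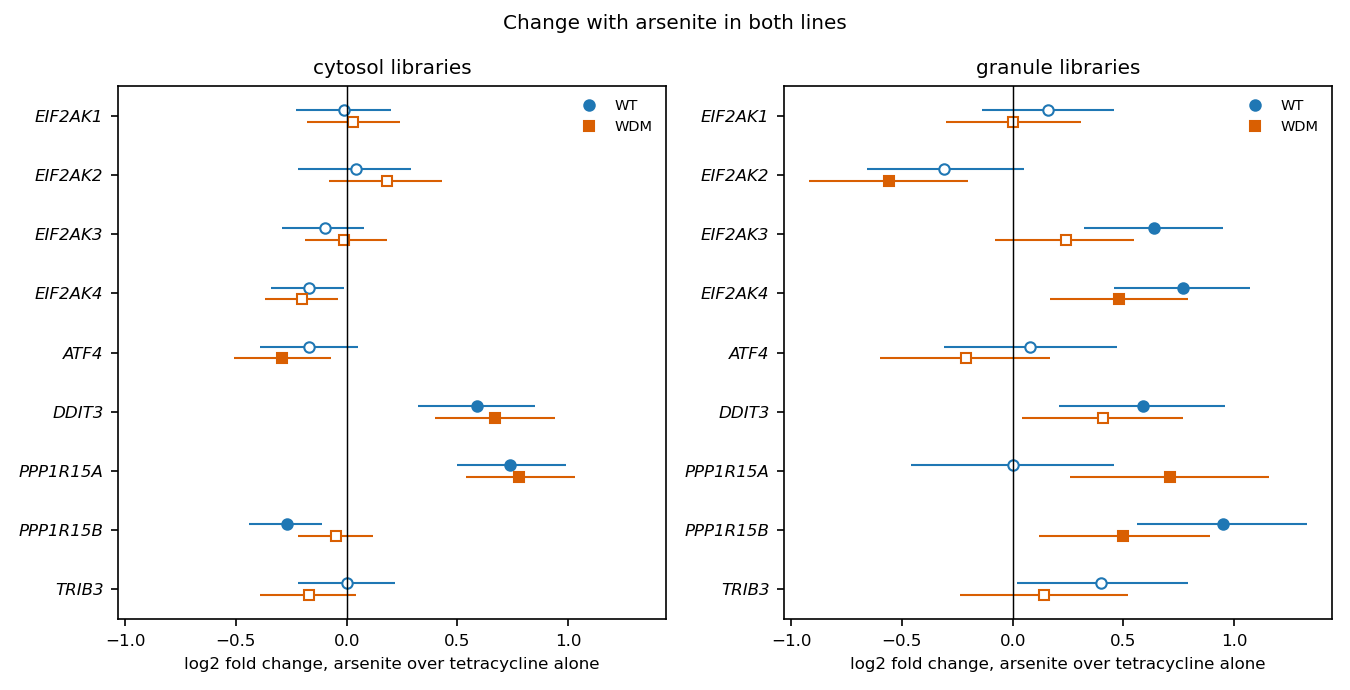
Log2 fold change with arsenite against tetracycline alone (horizontal axis) for 9 genes in the cytosol (left) and granule (right) libraries, with 95% intervals, circles for WT, squares for WDM and filled symbols where the adjusted p is under 0.05. In cytosol PPP1R15A (0.74 and 0.78) and DDIT3 (0.59 and 0.67) rose in both lines, while in the granule libraries EIF2AK4 (0.77 and 0.48) and PPP1R15B (0.95 and 0.50) did.

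Tetracycline alone, which switches on the TIA1 transgene, called 0 of the 9 genes in WT cytosol (5.31% of all genes) and 0 in WDM (6.30%) by edgeR, and 0 in either line by DESeq2. At an unadjusted p under 0.05 there was 1 of the 9 genes in each line, PPP1R15A. Of the 16670 genes tested, 3633 (21.8%) in WT and 3536 (21.2%) in WDM passed that limit. Untreated WT cytosol had 28.9, 29.3 and 29.6 CPM of PPP1R15A and untreated WDM cytosol 30.5, 29.3 and 34.2 CPM. Against these the tetracycline libraries were all higher in WT but overlapped in WDM, with log2 fold changes of 0.34 ± 0.122 (adjusted p = 0.109) and 0.27 ± 0.12 (adjusted p = 0.189). Compared with untreated cells, tetracycline plus arsenite raised PPP1R15A by log2 1.08 ± 0.12 in WT (adjusted p = 5.66e-06) and 1.06 ± 0.117 in WDM (adjusted p = 2.46e-06), a fold of 2.11 and 2.08. DDIT3 rose by 0.65 ± 0.13 and 0.45 ± 0.127. This comparison called 4 of 9 genes in WT, with EIF2AK4 (log2 -0.21) and PPP1R15B (-0.22) lower, against 32.3% of all genes, and 2 of 9 in WDM, against 39.1%. The 2 falls in WT were not called by DESeq2, and 1 or both were lost without any 1 of the untreated libraries or without arsenite replicate 2 or 3. Without WDM arsenite replicate 3 the count in WDM was 4, with ATF4 and EIF2AK4 added. The 3 treatment comparisons share libraries, so their values are not independent.

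Between the lines, EIF2AK3 was lower in WDM cytosol. Its values were 47.6, 47.2 and 41.8 CPM in untreated WT and 37.3, 35.2 and 39 CPM in untreated WDM, with no overlap (log2 -0.29 ± 0.0893, adjusted p = 0.0413). With tetracycline it had 46, 44.9 and 53.4 CPM in WT and 37.9, 39.4 and 39.1 CPM in WDM, again without overlap (log2 -0.30 ± 0.0888, adjusted p = 0.0285). The untreated call held only without WT replicate 3 and was lost without any other single library (log2 -0.36 to -0.26, adjusted p up to 0.178), and the tetracycline call was lost without WT replicate 3, WDM replicate 1 or WDM replicate 3 (-0.35 to -0.22, adjusted p up to 0.194). With library totals alone the adjusted p was 0.0587 untreated and 0.0578 with tetracycline, with no filter 0.305 and 0.131, and with only the groups compared 0.0013 and 0.166. EIF2AK4 was higher in WDM with tetracycline (158 to 171 CPM against 133 to 143 CPM, log2 0.24 ± 0.0794, adjusted p = 0.0496), a call lost without WT replicate 2 or 3 or WDM replicate 1 or 3. The EIF2AK4 call was also lost with no filter and with only the groups compared. ATF4 was at 871, 881 and 883 CPM in untreated WDM cytosol and 713, 745 and 743 CPM in untreated WT, without overlap (log2 0.26 ± 0.105, adjusted p = 0.128). That difference was not called here but was with library totals alone (0.30, adjusted p = 0.0336), with no filter (0.32, adjusted p = 0.0086) and with only the groups compared (0.26, adjusted p = 3.21e-05). With tetracycline ATF4 differed by 0.28 ± 0.105 (adjusted p = 0.093), and was called with library totals alone (adjusted p = 0.0151) and with no filter (adjusted p = 0.0173). Nuclear RNA stood higher in every untreated WDM cytosol library (615 to 671 CPM) than in every untreated WT one (339 to 407 CPM), and its part in these differences was not tested. Thus 1 of 9 genes was called between untreated lines (9.78% of all genes), 2 of 9 with tetracycline (12.6%) and 0 of 9 with arsenite (10.4%). With arsenite, 4 of the 9 genes and 3860 of the 16670 tested (23.2%) had an unadjusted p under 0.05, and DESeq2 called 0 of the 9. Without WDM arsenite replicate 2 EIF2AK4 was called there.

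The granule fraction held these messages very unequally. ATF4 had 672 to 833 CPM in WT cytosol and 178, 153 and 173 CPM in the WT granule libraries with tetracycline, 4.66-fold lower (log2 -2.22 ± 0.193, SE, n = 3 against 3, adjusted p = 2.54e-11). TRIB3 (31.5, 25 and 23.2 CPM in the same granule libraries) was 2.84-fold lower and DDIT3 (9.72, 8.43 and 9.07 CPM) 2.7-fold lower than in cytosol. For all 3 genes, and for EIF2AK1, every granule library lay below every cytosol library of the same line and treatment. This held in WT and WDM and with and without arsenite, and how many of all genes separate this way was not counted. EIF2AK2 went the other way, with 215, 187 and 135 CPM in WT granule libraries against 140, 106 and 90.9 CPM in cytosol (log2 0.65 ± 0.166, adjusted p = 0.000858), where the lowest granule library lay below the highest cytosol library. In WDM it was higher in all 3 granule libraries (175, 202 and 209 CPM against 131, 98.3 and 112 CPM, log2 0.75 ± 0.166, adjusted p = 0.00023). EIF2AK1 was lower in the granule fraction, by log2 -0.39 ± 0.129 in WT and -0.54 ± 0.128 in WDM.

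Calls between the fractions were frequent in the whole table, so their number says little about these genes. With tetracycline, 6 of 9 genes were called in WT (75.7% of all genes) and 7 of 9 in WDM (71.1%). With arsenite, 8 of 9 were called in WT (70.5%) and 7 of 9 in WDM (72.0%). The median log2 fold change of the 9 genes was -0.39, -0.54, -0.32 and -0.64 in these comparisons, against 0.07, 0.02, 0.05 and 0.06 over all genes.

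**Figure D3:**
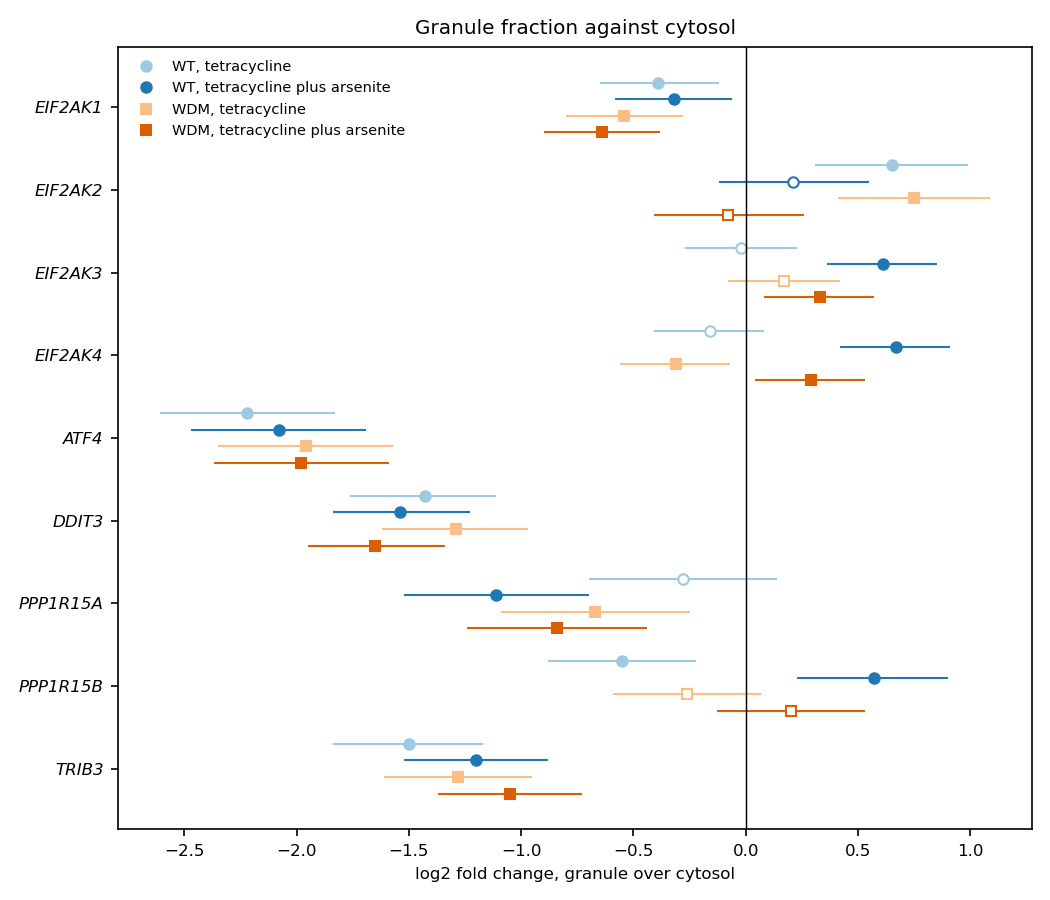
Log2 fold change of the granule fraction over cytosol (horizontal axis) for 9 genes, with 95% intervals, for WT (circles) and WDM (squares), with tetracycline (pale) and with tetracycline plus arsenite (dark), filled where the adjusted p is under 0.05. ATF4 lies near -2 in all 4 comparisons (-2.22 to -1.96), and EIF2AK4 and PPP1R15B move from below 0 to above it with arsenite in both lines.

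Among these 9 genes, those with more annotated exon sequence stood higher in the granule fraction. The summed length of all annotated exon bases of a gene, which is not the length of 1 message, was 1.31 kb for DDIT3, 2.61 kb for ATF4, 3.29 kb for TRIB3, 3.43 kb for PPP1R15A, 5.49 kb for EIF2AK1, 9.34 kb for PPP1R15B, 11 kb for EIF2AK2, 12 kb for EIF2AK4 and 20.7 kb for EIF2AK3. Spearman's rho between length and granule enrichment over these 9 genes was 0.833 in WT with tetracycline, 0.9 in WDM with tetracycline, 0.95 in WT with arsenite and 0.967 in WDM with arsenite. Over 18092 genes it was 0.229, 0.247, 0.306 and 0.253. With the span of the gene in place of exon length, rho was 0.733, 0.767, 0.817 and 0.833 over the 9 genes and 0.507, 0.532, 0.491 and 0.445 over all, so the gap between the 9 genes and the whole table was smaller. The points share the same libraries. The long genes here are the kinases and PPP1R15B and the short ones are ATF4, DDIT3, TRIB3 and PPP1R15A, so length and role cannot be told apart in 9 genes. Lengths are from GENCODE v44, whose PPP1R15A and PPP1R15B models have other ends than those in the count table, and the exon bases of PPP1R15B exceed its span there.

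**Figure D4:**
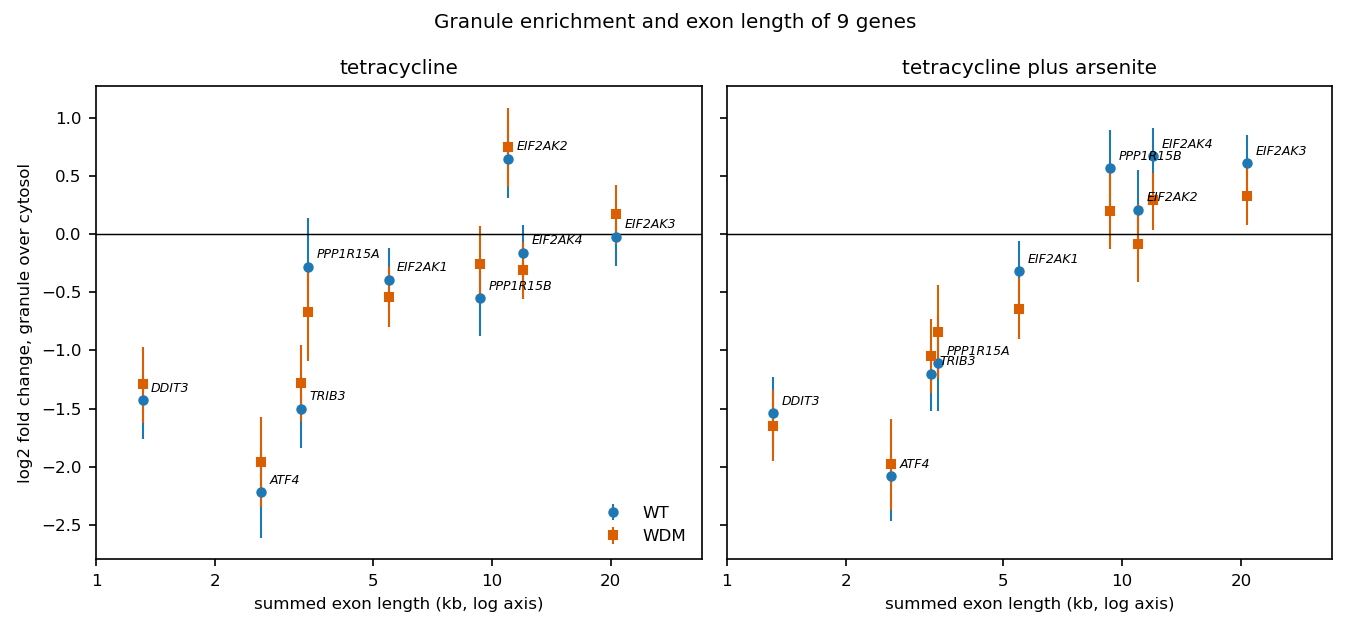
Log2 fold change of the granule fraction over cytosol (vertical axis, 95% intervals) against summed exon length in kb (horizontal log axis) for 9 genes, with tetracycline (left) and with tetracycline plus arsenite (right), circles for WT and squares for WDM. Genes under 4 kb lie below 0 in both panels, and with arsenite in WT the 4 genes over 9 kb lie above it.

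Within the WT granule fraction, arsenite raised PPP1R15B, EIF2AK4, EIF2AK3 and DDIT3. PPP1R15B had 162, 144 and 121 CPM in the WT granule libraries with tetracycline and 305, 214 and 246 CPM with arsenite, all higher (log2 0.95 ± 0.189, SE, n = 3 against 3, adjusted p = 0.000533). EIF2AK4 went from 129, 134 and 113 CPM to 218, 181 and 195 CPM (log2 0.77 ± 0.15, adjusted p = 0.000468). EIF2AK3 went from 43.3, 50.8 and 48.8 CPM to 79.7, 68.6 and 58.8 CPM (log2 0.64 ± 0.153, adjusted p = 0.00266). None of these groups overlapped, and the WT calls of all 3 genes held on leaving out any 1 library. DDIT3 rose from 8.43 to 9.72 CPM to 11.1 to 13.6 CPM (log2 0.59 ± 0.182, adjusted p = 0.0158), the same log2 value as in WT cytosol. That call was lost without tetracycline replicate 2 or 3 or arsenite replicate 2 or 3, with adjusted p up to 0.0687. ATF4 did not change detectably (log2 0.08 ± 0.189). Mitochondrial RNA (MT-CO1, MT-ND1 and MT-CYB, summed) was 1576 to 2939 CPM in the WT granule libraries with tetracycline and 426 to 978 CPM with arsenite, and its part in these changes was not tested.

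The WDM granule libraries gave a partly different list of called genes. EIF2AK4 rose there too, from 127, 138 and 140 CPM to 166, 174 and 195 CPM (log2 0.48 ± 0.15, adjusted p = 0.0134), and PPP1R15B from 126, 193 and 190 CPM to 179, 249 and 252 CPM (log2 0.50 ± 0.187, adjusted p = 0.037), where the groups overlapped. PPP1R15A had 18.7, 25.2 and 28.8 CPM with tetracycline and 30.8, 45.7 and 36.2 CPM with arsenite, all higher (log2 0.71 ± 0.22, adjusted p = 0.0133). EIF2AK2 had 175, 202 and 209 CPM before and 107, 117 and 152 CPM with arsenite, all lower (log2 -0.56 ± 0.174, adjusted p = 0.0131). DDIT3 (7.91, 9.71 and 9.52 CPM before, 11.8, 11.9 and 10.5 CPM with arsenite) was higher in all WDM arsenite libraries but was not called. The same held for EIF2AK3 (43.1, 45.6 and 45.1 CPM before, 51.7, 50.9 and 46.8 CPM with arsenite). Without WDM arsenite replicate 2 only 1 of the 4 calls held, that of EIF2AK4, and without replicate 3 only 2 did, those of EIF2AK2 and PPP1R15A. The EIF2AK2 call was also lost without arsenite replicate 1, and those of PPP1R15A and PPP1R15B without tetracycline replicate 1. Mitochondrial RNA was 802 to 2376 CPM in the WDM granule libraries with tetracycline and 638 to 1080 CPM with arsenite, which was not tested against these changes either.

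Arsenite thus called 4 of 9 genes in the granule fraction of each line, against 30.6% of 18366 genes in WT and 36.3% in WDM. The median log2 fold change of the 9 genes was 0.40 in WT and 0.24 in WDM, with -0.03 and 0.01 over all genes. PPP1R15A was the gene on which the lines looked most unlike, since WT granule libraries had 42.5, 29.6 and 22.9 CPM before and 22.8, 26.3 and 38.2 CPM with arsenite (log2 -0.00 ± 0.223). The difference between the lines was log2 0.71 (95% interval 0.07 to 1.35), with an adjusted p of 0.35 in edgeR's test over all genes. That test, added after the values had been seen, called 0 of 9 genes and 0 of 18366 (0.00%). At an unadjusted p under 0.05 there were 1 of the 9 (PPP1R15A) and 2329 of all genes (12.7%), and DESeq2 called 0. Without the low-count filter edgeR called 44 of 37318 genes in this test, and 0 of the 9. Between the lines at equal treatment, 0 of 9 genes were called in granule libraries with tetracycline (5.55% of all genes). There 2 of 9 and 3167 of 18366 genes (17.2%) had an unadjusted p under 0.05, and DESeq2 called 0 of the 9. Without WDM tetracycline replicate 1, ATF4 was called there at log2 0.76. With arsenite 1 of 9 was called (7.95%), EIF2AK3 at 51.7, 50.9 and 46.8 CPM in WDM against 79.7, 68.6 and 58.8 CPM in WT (log2 -0.50 ± 0.151, adjusted p = 0.0388). This call held only without WT replicate 3 among the single libraries, and was lost with libraries scaled by their totals alone (log2 -0.41, adjusted p = 0.0908).

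Setting both fractions against each other, the effect of arsenite on granule enrichment was opposite for the 2 phosphatase subunits in WT. Enrichment of PPP1R15B rose by log2 1.11 ± 0.229 (SE, n = 3 in each of 4 groups, adjusted p = 0.000634), while that of PPP1R15A fell by 0.84 on the log2 scale (SE 0.285, adjusted p = 0.026). The first held on leaving out any 1 of the 12 libraries, and the second was lost without cytosol arsenite replicate 1, granule tetracycline replicate 1 or granule arsenite replicate 1 or 2, with adjusted p up to 0.106. PPP1R15A counts for each PPP1R15B count were 0.262, 0.205 and 0.19 in the WT granule libraries with tetracycline and 0.0747, 0.123 and 0.155 with arsenite, lower in all 3, the reverse of the cytosol. In the WDM granule libraries they were 0.148, 0.131 and 0.152 before and 0.172, 0.184 and 0.143 with arsenite, and these overlapped. Enrichment of EIF2AK4 rose in both lines (0.83 ± 0.17 in WT, adjusted p = 0.000582, and 0.60 ± 0.169 in WDM, adjusted p = 0.0106), that of EIF2AK3 in WT (0.63 ± 0.17, adjusted p = 0.00594), and that of EIF2AK2 fell in WDM (log2 -0.82 ± 0.233, adjusted p = 0.0108). This made 4 of 9 genes called in WT (31.4% of all genes) and 2 of 9 in WDM (24.2%). The median change of all genes in this comparison was -0.21 in WT and -0.17 in WDM, so these values are relative to a shifted centre. Whether the lines differ in these enrichment changes was not tested.

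Compared per kb of exon, ATF4 was the most abundant of the 9 genes that could be read in cytosol, at a mean of 305 CPM per kb over the 18 libraries (range 246 to 406). TRIB3 (23.2, range 19.2 to 27.6), DDIT3 (21.1, 14.6 to 29.8) and PPP1R15B (21, 17.6 to 23.7) followed with overlapping ranges, then EIF2AK1 (16.7, 13.8 to 20.1), PPP1R15A (12.8, 8.43 to 23.6), EIF2AK4 (12.1, 9.37 to 14.3) and EIF2AK2 (10.5, 8.24 to 12.7). EIF2AK3 was the lowest gene that could be read, at 2.04 CPM per kb (1.7 to 2.58), and its range met that of no other gene. This order depends on the summed exon length, which is not the length of 1 message. In CPM, without that divisor, EIF2AK3 had 35.2 to 53.4 in cytosol, against 19.1 to 38.9 for DDIT3 and 28.9 to 80.9 for PPP1R15A.

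Other genes of the pathway were taken from 6 lists, whose calls were not recomputed under the other scalings. Of 29 ATF4 targets of amino acid supply and stress signalling, 2 rose and 5 fell with arsenite in WT cytosol, and 2 rose and 5 fell in WDM, where 29.0% and 28.8% of all genes were called. Their medians were -0.16 and -0.12 on the log2 scale. Both lines shared the rise of CTH, which makes cysteine (log2 0.72 ± 0.101 in WT and 0.61 ± 0.0959 in WDM), and of CHAC1, which degrades glutathione (1.04 ± 0.236 and 0.53 ± 0.196). They also shared falls of SLC1A5, a glutamine transporter (-0.38 ± 0.111 and -0.30 ± 0.11), of MTHFD2, a mitochondrial folate enzyme (-0.35 ± 0.0989 and -0.37 ± 0.0987), and of ERO1A, an oxidase of the endoplasmic reticulum (-0.33 ± 0.0774 and -0.27 ± 0.0771). Of 5 tested bZIP partners of ATF4, ATF3, itself an early stress gene, rose in both lines (log2 0.94 ± 0.0921 in WT and 0.91 ± 0.0918 in WDM). In WDM cytosol 14 of 29 genes were higher and 1 lower than in WT when untreated, 17 and 1 with tetracycline, and 16 and 1 with arsenite, with medians of 0.32, 0.46 and 0.39 against 0.00, 0.00 and 0.01 over all genes. Of all 16670 genes, 698, 967 and 830 were called higher in WDM in these comparisons. Mitochondrial RNA was 832 to 958 CPM in untreated WT and 974 to 1177 CPM in untreated WDM cytosol, where nuclear RNA differed too. With tetracycline the nuclear RNA ranges in WT and WDM were 221 to 518 and 341 to 668 CPM, and with arsenite 522 to 567 and 546 to 795 CPM, and their part in these differences was not tested. CHAC1 was higher by log2 0.90 ± 0.233, 1.44 ± 0.232 and 0.92 ± 0.199 in these comparisons. ALDH1L2, a mitochondrial folate enzyme, was the list's largest difference with tetracycline (3.05 ± 0.238, adjusted p = 7.84e-08) and is named after its value was seen. In the same comparisons DDIT3 and PPP1R15A were not called, nor was TRIB3 except between untreated lines with only the groups compared (adjusted p = 0.0169), and ATF4 was called only under the settings given above and, with tetracycline, with the replicate block (adjusted p = 0.0392).

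Most of the 15 genes of the other arms of the unfolded protein response fell in cytosol with arsenite, with 1 of 15 genes higher and 10 lower in WT and 1 and 9 in WDM (medians -0.40 and -0.39 on the log2 scale). Over all 16670 genes, 2559 were lower in WT and 2459 in WDM. HYOU1, a chaperone of the endoplasmic reticulum, fell by 0.77 in WT and by 0.57 in WDM, and PDIA4 and CALR, which also aid folding there, fell by 0.65 and 0.64 in WT. HERPUD1, which serves degradation at the endoplasmic reticulum, was the list's only riser in both lines (0.35 ± 0.0901 and 0.37 ± 0.0888). In the granule fraction the list went the other way, with 9 of 15 genes higher and 1 lower in WT (median 0.56) and 6 and 1 in WDM (median 0.17), where 3032 and 3429 of all 18366 genes were higher. There HERPUD1 gained log2 1.54 ± 0.164 (WT) and 1.20 ± 0.16 (WDM), and HYOU1 gained 0.84 ± 0.208 (WT) and 0.93 ± 0.207 (WDM). Subunits of eIF2 and its exchange factor eIF2B, the targets of the kinases, were lower in the granule fraction in 8 of 8 genes in both lines, with and without arsenite (medians -1.69 to -1.24), where 6403 to 6566 of all 18141 genes were lower.

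**Figure D5:**
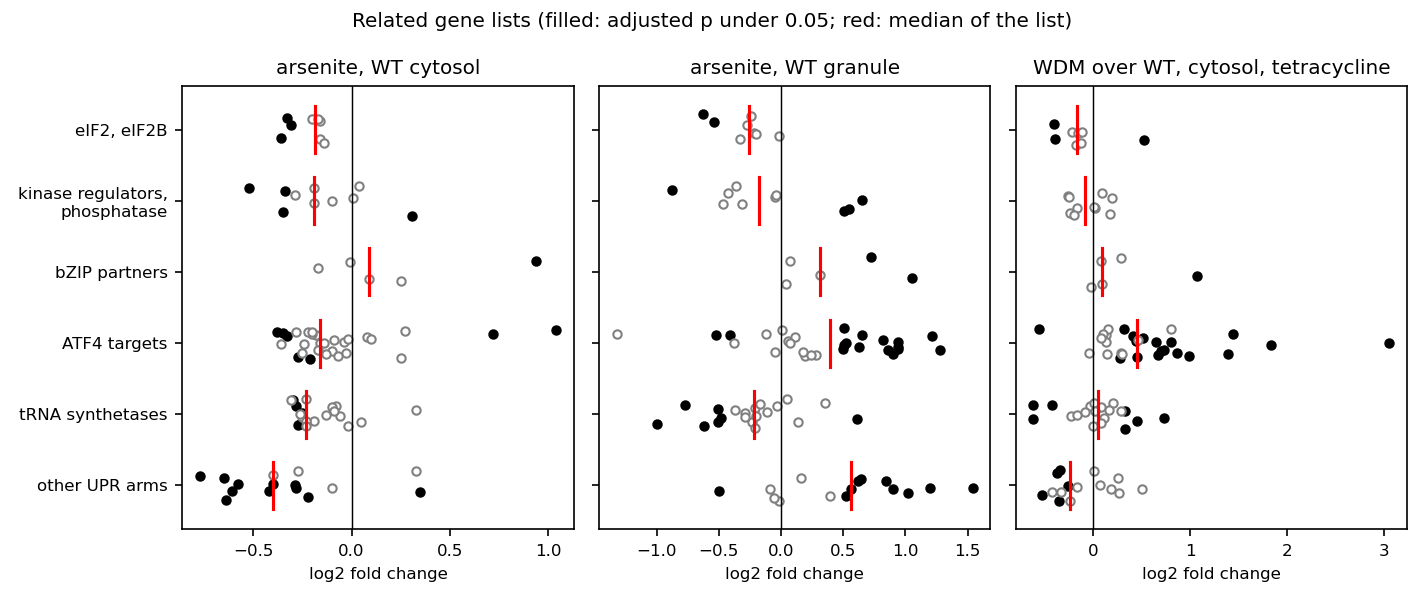
Log2 fold change (horizontal axis) of each tested gene in 6 related lists for arsenite in WT cytosol, arsenite in the WT granule fraction, and WDM over WT in cytosol with tetracycline, filled where the adjusted p is under 0.05, with a red bar at the median of the list. The other arms of the unfolded protein response have a median of -0.40 in cytosol and 0.56 in the granule fraction, and the ATF4 targets lie mostly right of 0 in the comparison of lines (median 0.46).

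The genes whose group means ran most like those of 3 of the 10 genes were sought by Pearson's correlation of mean log2 CPM over the 10 groups, among 11503 candidates. The cytosol and granule groups stand far apart for many genes, so high values come easily. For ATF4 they were USP18, SPAG7 and COX5A (r = 0.999, 0.998 and 0.997), all lower in the granule fraction. For DDIT3 they were RHOB, CDCA8 and JMJD6 (0.976, 0.973 and 0.973). For PPP1R15A they were AKAP17A, THUMPD3-AS1 and SERTAD1 (0.951, 0.934 and 0.926), and SERTAD1 went from a mean of 22.4 to 51 CPM in WT cytosol with arsenite and from 18.8 to 48.7 CPM in WDM. Among the 9 tested genes themselves, without ASNS, ATF4 ran most like TRIB3 (r = 0.989), and the r of PPP1R15A with PPP1R15B was -0.0571.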

How the data were processed

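RNA of 30 libraries was sequenced after ribosomal RNA removal with a stranded kit, per the labels. The authors deposited raw read counts per gene. The submitters' processing notes name Trimmomatic, STAR, Picard, featureCounts and the build GRCh38, and their versions, the strand setting and the handling of duplicates are not given in the sources used here. The 10 genes and the related lists were chosen with earlier results of these data known. Counts were tested with edgeR 4.0.16 (R 4.3.3; TMM scaling, robust quasi-likelihood F-test, filterByExpr with a minimum count of 10 and a minimum total of 15) in 3 fits: 18 cytosol libraries (16670 genes), 12 granule libraries (18366 genes) and the 24 libraries of tetracycline-treated cells in both fractions (18141 genes). Adjustment was by Benjamini-Hochberg over all genes of a fit, and 9 of the 10 genes passed the filter. The arsenite difference between the lines in granule libraries was added after seeing the data. The scripts were tested on simulated data. Alternatives were DESeq2 1.42.0, RLE factors, library totals alone, no filter, a replicate block, only the groups compared, and leaving out each library. The replicate numbers were checked for pairing by the correlation of deviations from group means: all 3 pairs exceeded 0.1 in 1 of 17 comparisons, granule against cytosol in WDM with arsenite (0.35, 0.563 and 0.306). No 2 libraries of a group agreed within sampling noise (chi-square per degree of freedom 1.63 to 40.7). Where a library had no count, the limit taken was 3 counts of its total, for counting error only. From each related list, genes called the same way by arsenite in cytosol of both lines were named, up to 3 in each direction. Genes with patterns like ATF4, PPP1R15A and DDIT3 were the 3 with the highest Pearson correlation over group means.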

Additional observations from a re-analysis of the deposited data

How the results depend on the processing

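Of 189 results for single genes, 187 kept their side of the threshold with DESeq2, 185 with RLE factors, 180 with library totals alone, 178 with no filter, 182 with the replicate block and 175 with only the groups compared, and no called result changed sign. Among uncalled results the sign changed in 13 with library totals alone, 7 with no filter, 3 with only the groups compared, and 1 each with DESeq2, RLE factors and the replicate block, all at log2 values of at most 0.17 in size as reported. Leaving out 1 library at a time gave 1350 results for single genes. Of these, 57 lost a call, 13 gained one, and 69 uncalled ones changed sign. Counts of called genes moved as follows, and the cause was not tested. For arsenite in WT cytosol, 3 became 2 with library totals alone, no filter and only the groups compared, and 2 to 4 with 1 library left out. In WDM cytosol, 3 became 2 with library totals alone and only the groups compared, 4 with the replicate block, and 2 to 4 with 1 library left out. For tetracycline plus arsenite against untreated WT cytosol, 4 became 2 with RLE factors, library totals alone, no filter and DESeq2, and 2 to 4 with 1 library left out. In WDM, 2 became 3 in the same comparison with the replicate block and with only the groups compared, and 2 to 4 with 1 library left out. For WDM against WT in untreated cytosol, 1 became 6 with only the groups compared and 0 to 1 with 1 library left out. With tetracycline, 2 became 1 with RLE factors, 1 with no filter, 4 with the replicate block and 0 with only the groups compared, and 0 to 3 with 1 library left out. With arsenite, 0 became 1 with the replicate block and 0 to 1 with 1 library left out. For arsenite in WT granule libraries, 4 became 3 to 4 with 1 library left out. In WDM granule libraries, 4 became 3 with the replicate block and 1 to 4 with 1 library left out. For WDM against WT in granule libraries, 0 with tetracycline became 0 to 1 with 1 library left out, and 1 with arsenite became 0 with library totals alone, no filter, the replicate block and only the groups compared, and 0 to 1 with 1 library left out. For granule against cytosol with tetracycline, 6 in WT became 5 with only the groups compared and 6 to 7 with 1 library left out. In WDM, 7 became 6 with no filter and 6 to 7 with 1 library left out. With arsenite, 8 in WT became 7 with RLE factors and no filter, and 7 to 8 with 1 library left out. In WDM, 7 became 5 with only the groups compared and 5 to 7 with 1 library left out. In the comparison whose numbers paired the samples, granule against cytosol in WDM with arsenite, the replicate block gave 7, as without it. For the arsenite change of granule enrichment, 4 in WT became 3 to 5 and 2 in WDM became 2 to 3 with 1 library left out. Depth limits DDIT3 most in granule libraries, where its lowest count was 57, and ASNS could not be measured.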

Other observations

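Regulators of the kinases included IMPACT, which restrains EIF2AK4, and DNAJC3, a chaperone that restrains EIF2AK2 and EIF2AK3. Of 10 tested genes in that list, 1 rose and 3 fell with arsenite in WT cytosol, and 0 rose and 3 fell in WDM, where 29.0% and 28.8% of all genes were called. IMPACT changed by log2 -0.35 ± 0.11 (SE, adjusted p = 0.0229) in WT and -0.45 ± 0.109 (adjusted p = 0.00505) in WDM. DNAJC3 changed by -0.52 ± 0.0987 and -0.34 ± 0.0986 (adjusted p = 0.000847 and 0.0146). In WT granule libraries both rose, IMPACT by 0.51 ± 0.18 and DNAJC3 by 0.55 ± 0.155, and in WDM granule libraries they had -0.08 ± 0.177 and 0.33 ± 0.154, which were not called. OMA1, which relays mitochondrial stress to EIF2AK1, had 0 counts in all libraries. Whether its reads were lost to an overlapping gene was not checked, so this does not show that it is silent.

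Cytosolic aminoacyl-tRNA synthetases, which load amino acids onto tRNA, were lower in 5 of 20 genes with arsenite in WT cytosol and 4 of 20 in WDM, and 0 rose in either, where 2559 and 2459 of all 16670 genes were lower and 29.0% and 28.8% were called. WARS1 changed by log2 -0.28 ± 0.0733 and -0.29 ± 0.0732, and QARS1 by -0.27 ± 0.0769 and -0.27 ± 0.0754. QARS1 was also higher in WDM than in WT cytosol, by 0.77 ± 0.0766 untreated, 0.73 ± 0.0765 with tetracycline and 0.73 ± 0.0764 with arsenite. In the granule fraction 15 of 20 were lower than in cytosol in each line with tetracycline and 18 of 20 with arsenite, where 6403 to 6566 of all 18141 genes were lower.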
